A study of Homo sapiens with 12 samples.

Results

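Levels of 9 genes for G protein-coupled receptors were followed by RNA-seq in cardiac differentiation of H1 cells, out of 61806 genes in the table. They are the receptors of autonomic transmitters and of vasoactive peptides ADRB1, ADRA1A, ADRA1B, CHRM2, ADORA1, AGTR1, EDNRA and EDNRB, and the orphan receptor GPR22. They were taken by gene symbol and had been selected on their FPKM in these same libraries, so their levels and fold changes are given here as a description and without a test. H1 is an established human embryonic stem cell line, labelled wild type. In all 6 groups the cells were driven toward mesendoderm with the WNT activator CHIR-99021 on Day 0 and received insulin on Day 1, in DF medium. NP-IWP2 stands for static culture with the WNT inhibitor IWP2, applied from Day 2. Dissociation and replating on Day 2 defines both passaged treatments, which are P-DF, without IWP2, and P-IWP2, with it. No static culture without IWP2 was sampled here. P-DF thus differs from NP-IWP2 in both replating and IWP2, and their effects cannot be told apart in that comparison. Per the paper, a ROCK inhibitor was added in its later differentiation experiments, so replated cells may also have received it. Each treatment was sampled on Day 12 and on Day 16 with 2 libraries each, 12 in all. All libraries come from 1 cell line, and nothing in the labels says that the 2 libraries of a group came from separate differentiations, so the spread between them may be technical.

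Autonomic nerves control the rate and force of the heart through receptors on cardiomyocytes. Noradrenaline acts on beta-adrenergic receptors, which couple to Gs and raise cAMP, and on alpha1-adrenergic receptors, which couple to Gq. Acetylcholine acts on the M2 muscarinic receptor and adenosine on the A1 receptor, and both couple to Gi, lower cAMP and open the potassium channel built from KCNJ3 and KCNJ5. Angiotensin II and endothelins signal mainly through Gq. GPR22 has no settled ligand and is known for its transcripts in heart and brain.

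Between 14885589 and 19176239 reads were counted on genes per library, and FPKM is that count scaled to exon length and to the total of the library. The 7 cardiomyocyte markers TNNT2, MYH6, MYH7, MYL7, ACTN2, NKX2-5 and TNNI1 were above 0 in every group, with summed levels between 2110 and 8660 FPKM. The Day 12 library labelled P-IWP2 replicate 5 stood apart. Its log2 levels correlated with those of replicate 6 at r = 0.869 across genes, against 0.981 to 0.989 in the other 5 pairs, and its epicardial markers summed to 140.0 FPKM where replicate 6 had 0.76. The main fold changes that use this pair are given with and without that library. The 6 groups share 1 estimate of spread, so standard errors and adjusted p of the other comparisons depend on this pair too. For P-DF against NP-IWP2 on Day 16, the standard error of the log2 fold change was 0.51 with and 0.263 without replicate 5 for GPR22. It was 0.274 and 0.0978 for CHRM2, and 0.862 and 0.833 for AGTR1. RNA was taken from whole cultures, in which fewer cells of a type and less RNA per cell cannot be told apart.

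The stretches before the start of 3 of the receptor genes are shown because these genes lay on opposite sides on Day 16, GPR22 and EDNRA higher in passaged cells and CHRM2 higher in static cells. They come from RefSeq on GRCh38.p14, read in the direction of the gene, and they end where the first annotated exon begins. GPR22 is at chr7:107469807-107470017, EDNRA at chr4:147480847-147480916 and CHRM2 at chr7:136868402-136868651, all on the plus strand. Capitals mark matches to 6 short motifs searched on both strands.
GPR22: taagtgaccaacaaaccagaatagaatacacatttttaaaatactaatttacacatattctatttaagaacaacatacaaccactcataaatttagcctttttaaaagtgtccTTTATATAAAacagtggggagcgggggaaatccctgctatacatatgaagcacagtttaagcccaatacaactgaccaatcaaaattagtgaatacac
EDNRA: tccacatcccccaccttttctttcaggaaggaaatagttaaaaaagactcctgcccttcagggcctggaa
CHRM2: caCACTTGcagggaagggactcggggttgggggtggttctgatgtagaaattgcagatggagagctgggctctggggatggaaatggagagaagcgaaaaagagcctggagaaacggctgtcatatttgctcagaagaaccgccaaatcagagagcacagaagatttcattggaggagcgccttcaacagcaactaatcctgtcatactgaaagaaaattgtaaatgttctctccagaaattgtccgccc

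The capitals in the GPR22 sequence are 2 overlapping matches to TATAAA, the letters of a TATA box, which begin 137 and 133 bases before the RefSeq start. Those in the CHRM2 sequence are 1 match to CAAGTG on the opposite strand, letters bound by NKX2-5. The EDNRB window held 1 such match as well, 221 bases before its start, and the other 5 windows searched held none. Annotated exons covered 250 of the 250 bases searched for ADORA1, 236 for EDNRB, 180 for EDNRA and 32 for GPR22. The EDNRB match lies within such an exon. Among 27305 windows of 250 bases before RefSeq starts, 11.1% held TATAAA and 9.59% held CAAGTG. Neither AGATAA (letters bound by GATA factors, in 9.37% of windows) nor AGGTGT (T-box factors, 9.66%) nor a CArG box (1.14%) matched in the windows of GPR22, ADRB1, ADRA1B, CHRM2, ADORA1, EDNRA or EDNRB. TGACG, letters of the cAMP response element, matched once, in the ADRB1 window, and was present in 21.7% of all windows. The GC content of the 7 windows ran from 35.6% for GPR22 to 79.6% for ADRA1B. A match describes letters in a window, and the absence of one says only that these letters are not there.

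GPR22 (ENSG00000172209, chr7:107470018-107475684, plus strand) was near 0 in all cultures on Day 12 and was highest in passaged cells on Day 16. On Day 12 it had 0.06 and 0.03 FPKM in the NP-IWP2 libraries, 0.13 and 0.15 in P-DF, and 0.03 and 0.21 in P-IWP2. On Day 16 it had 0.24 and 0.32 FPKM in NP-IWP2, 5.86 and 6.43 in P-DF, and 3.31 and 2.05 in P-IWP2. On Day 16 both P-DF libraries lay above both P-IWP2 libraries, and these lay above both static ones. The NP-IWP2 libraries of Day 16 rest on 17 and 19 counts and those of P-DF on 350 and 430. The fitted log2 fold change (log2FC) against NP-IWP2 on Day 16 was 4.69 ± 0.51 (SE) for P-DF and 3.53 ± 0.496 for P-IWP2. The Day 12 libraries rest on few counts, 4 and 2 in NP-IWP2, 7 and 9 in P-DF, and 2 and 13 in P-IWP2. The size of the differences with time is therefore imprecise. In static cells as well, the level was higher on Day 16 than on Day 12, with a log2FC of 2.61 ± 0.694. The same difference was 5.70 ± 0.556 for P-DF, and for P-IWP2 it was 4.77 ± 0.55, or 3.94 ± 0.375 without replicate 5 of Day 12. Between the 2 passaged treatments on Day 16, the P-IWP2 level was lower by a log2FC of -1.16 ± 0.422, and the 2 P-IWP2 libraries themselves differed by more than the 2 P-DF libraries did.

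GPR22 lies within COG5, a gene for a subunit of a Golgi complex on the opposite strand, and shares no exonic base with it. Whether the counting used strand is not given in the sources used here. COG5 stood at 5.14 to 8.64 FPKM on Day 12 and at 6.17 to 10.17 on Day 16, with the 4 passaged libraries of Day 16 between 8.53 and 10.17 and the 2 static ones at 6.62 and 6.17. On Day 12, COG5 had 7.22 and 8.64 FPKM in P-DF while GPR22 had 0.13 and 0.15. The 3 genes whose levels followed GPR22 most closely were ABCC9, the sulfonylurea receptor subunit of potassium channels (Pearson r = 0.985), STRN, a scaffold protein (r = 0.985), and SRPK3, a muscle kinase (r = 0.984), over the 12 libraries on the log2(FPKM + 1) scale. On Day 16 ABCC9 averaged 0.685 FPKM in static cells, 3.33 with P-DF and 2.02 with P-IWP2. The 12 points of each correlation share their libraries and depth, and these correlations, like those given for the other receptor genes, are descriptions.

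**Figure D1:**
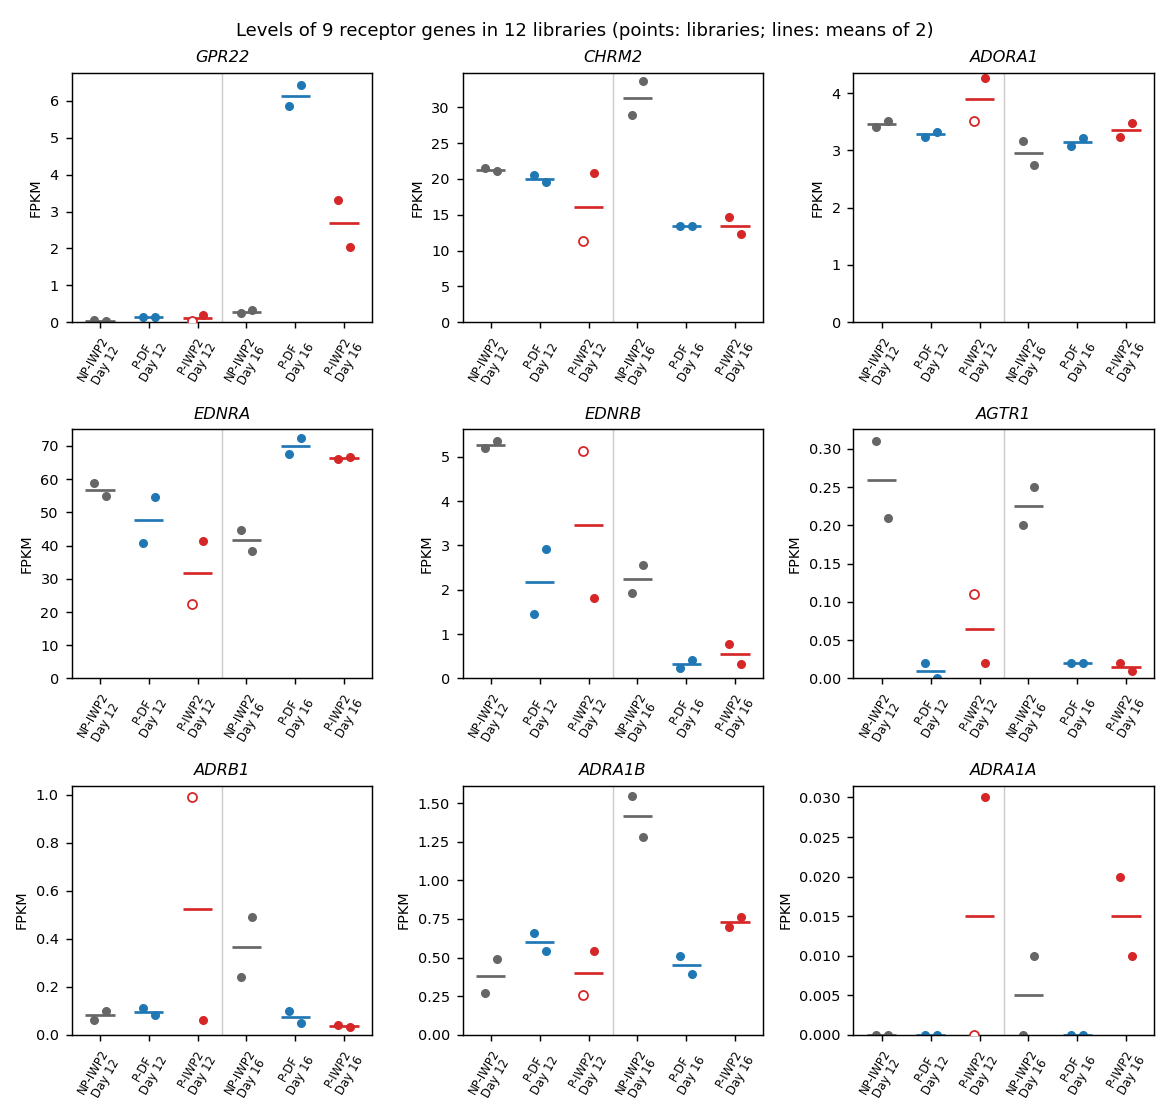
Levels of the 9 receptor genes in FPKM (vertical axis, from 0, with a scale of its own in each panel) by treatment and day. Points are libraries, lines are means of 2, and the open point is the Day 12 library labelled P-IWP2 replicate 5. GPR22 was near 0 on Day 12 and between 2.05 and 6.43 in the passaged libraries of Day 16, where CHRM2 lay below and EDNRA above the static libraries.

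The M2 muscarinic receptor gene CHRM2 (ENSG00000181072, chr7:136868652-137020255, plus strand) had similar levels in static and P-DF cells on Day 12 and lower levels in both passaged treatments on Day 16. Its Day 12 levels were 21.46 and 21.1 FPKM in NP-IWP2, 20.48 and 19.58 in P-DF, and 11.35 and 20.84 in P-IWP2, where the low value is that of replicate 5. Its Day 16 levels were 28.91 and 33.62 FPKM in NP-IWP2, 13.43 and 13.37 in P-DF, and 14.64 and 12.28 in P-IWP2. The 4 passaged libraries of Day 16 lay below both static libraries, and the P-DF and P-IWP2 libraries overlapped. The log2FC on Day 16 was -0.99 ± 0.274 for P-DF and -0.94 ± 0.274 for P-IWP2. The Day 12 values were 0.00 ± 0.272 for P-DF, and for P-IWP2 -0.39 ± 0.272 with and 0.06 ± 0.118 without replicate 5. With time, the static level was higher by 0.67 ± 0.272 and the P-DF level lower by a log2FC of -0.32 ± 0.272. In P-IWP2 the difference with time was 0.11 ± 0.272 with replicate 5 and -0.33 ± 0.118 without it.

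The summed cardiomyocyte markers went the other way from CHRM2 on Day 16, with 2720 to 3370 FPKM in NP-IWP2, 6610 to 7070 in P-DF and 8440 to 8660 in P-IWP2. MYH7 and MYL7 made up most of these sums. MYH6 went the same way as CHRM2, with 436.31 and 417.17 FPKM in static and 70.98 to 146.32 in passaged libraries, and TNNT2 overlapped, with 74.81 and 87.84 against 78.73 to 106.0. The part of these markers in the CHRM2 difference was not tested. The genes most like CHRM2 over the 12 libraries were C11orf96 (r = 0.959), GPR180 (r = 0.954) and BET1L (r = 0.94).

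The A1 adenosine receptor gene ADORA1 (ENSG00000163485, chr1:203090654-203167405, plus strand) varied little. The Day 12 libraries held 3.41 and 3.51 FPKM in NP-IWP2, 3.24 and 3.32 in P-DF, and 3.51 and 4.27 in P-IWP2. The Day 16 libraries held 3.16 and 2.75 FPKM in NP-IWP2, 3.07 and 3.22 in P-DF, and 3.23 and 3.48 in P-IWP2. In the order of the 6 group means the neighbouring groups overlapped, other than P-DF on Day 12 and P-DF on Day 16. The log2FC on Day 16 was 0.32 ± 0.196 for P-DF and 0.46 ± 0.195 for P-IWP2 with TMM scaling, and 0.09 and 0.18 with library totals. The antisense gene ENSG00000234775 shares 444 exonic bases with ADORA1, and without strand their reads cannot be told apart. NDUFA13, a subunit of complex I, was the gene most like it (r = 0.915), followed by PPM1J (r = 0.789) and ABHD14A (r = 0.783).

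The endothelin receptors are the A type, EDNRA (ENSG00000151617, chr4:147480917-147544954, plus strand), and the B type, EDNRB (ENSG00000136160, chr13:77895481-77975529, minus strand). EDNRA was the most abundant of the 9 genes in every library, at 48.3% to 77.8% of their summed FPKM, with CHRM2 second at 13.9% to 42.2%. On Day 12 EDNRA had 58.7 and 54.87 FPKM in NP-IWP2, 40.68 and 54.66 in P-DF, and 22.29 and 41.29 in P-IWP2, the lowest value being that of replicate 5. Levels on Day 16 were 44.72 and 38.49 FPKM in NP-IWP2, 67.63 and 72.45 in P-DF, and 66.12 and 66.52 in P-IWP2. Passaged libraries were thus below the static ones on Day 12, though the higher P-DF library only just, and above them on Day 16. The log2FC against NP-IWP2 was -0.17 ± 0.3 (P-DF) and -0.82 ± 0.303 (P-IWP2) on Day 12, and 0.98 ± 0.303 and 0.95 ± 0.303 on Day 16. Without replicate 5, the P-IWP2 value on Day 12 was -0.37 ± 0.177. With library totals in place of TMM, the Day 16 values were 0.75 and 0.67.

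EDNRB had its highest levels in static cells on Day 12 and its lowest in passaged cells on Day 16. Levels on Day 12 were 5.19 and 5.36 FPKM in NP-IWP2, 1.46 and 2.91 in P-DF, and 5.13 and 1.81 in P-IWP2, and the value of 5.13 is that of replicate 5. On Day 16 it had 1.93 and 2.55 FPKM in NP-IWP2, 0.23 and 0.41 in P-DF, and 0.77 and 0.33 in P-IWP2. The passaged libraries of Day 16 lay below both static ones, and levels on Day 16 lay below those of Day 12 within each treatment. The log2FC against NP-IWP2 on Day 16 was -2.56 ± 0.539 for P-DF and -1.76 ± 0.51 for P-IWP2, and that of Day 16 against Day 12 was -1.13 ± 0.478 in static cells and -2.50 ± 0.54 in P-DF. For P-IWP2 it was -2.21 ± 0.513, or -1.43 ± 0.409 without replicate 5.

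The ratio of EDNRA to EDNRB levels, both per length, was 11.3 and 10.2 in static cells on Day 12 and 23.2 and 15.1 on Day 16. In passaged cells on Day 16 it was 294.0 and 177.0 in P-DF and 85.9 and 202.0 in P-IWP2. On Day 12 it was 27.9 and 18.8 in P-DF, 22.8 in P-IWP2 replicate 6 and 4.35 in replicate 5, the lowest of the 12 libraries. EDNRB is known from endothelial and neural crest cells as well as from heart. The 6 endothelial markers (PECAM1, CDH5, KDR, TEK, TIE1 and VWF) summed to at least 49.8 FPKM in both NP-IWP2 libraries of Day 16 and to 10.1 to 15.0 in passaged cells. Most of these sums was KDR, with means of 39.3, 14.1 and 11.4 FPKM in NP-IWP2, P-DF and P-IWP2, while TIE1 was at 0 in P-DF and PECAM1 at 0 in P-IWP2. The 6 neural crest or neural markers, SOX10, TUBB3 and STMN2 among them, summed to 19.7 to 21.3 FPKM in static and to 0.07 to 0.14 in passaged cells on that day. In static cells 5 of them were above 0 on Day 16, and STMN2 made up most of the sum. Their part in the EDNRB difference was not tested. In replicate 5 of Day 12, where EDNRB was high, KDR had 11.16 FPKM against 232.51 in replicate 6. The other 5 endothelial markers were higher in replicate 5, for example CDH5 with 2.6 against 0.03 FPKM and TEK with 1.45 against 0.04, and so was the neural sum, with 10.9 against 0.14. PGGHG (r = 0.98), RAP2C (r = 0.98) and ZNF331 (r = 0.979) were most like EDNRB, and ZNF672 (r = 0.955), HSDL2 (r = 0.946) and SEPTIN8 (r = 0.942) most like EDNRA. OBI1-AS1, antisense to EDNRB, shares 80 exonic bases with it, and ENSG00000233379 shares 124 on the same strand.

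**Figure D2:**
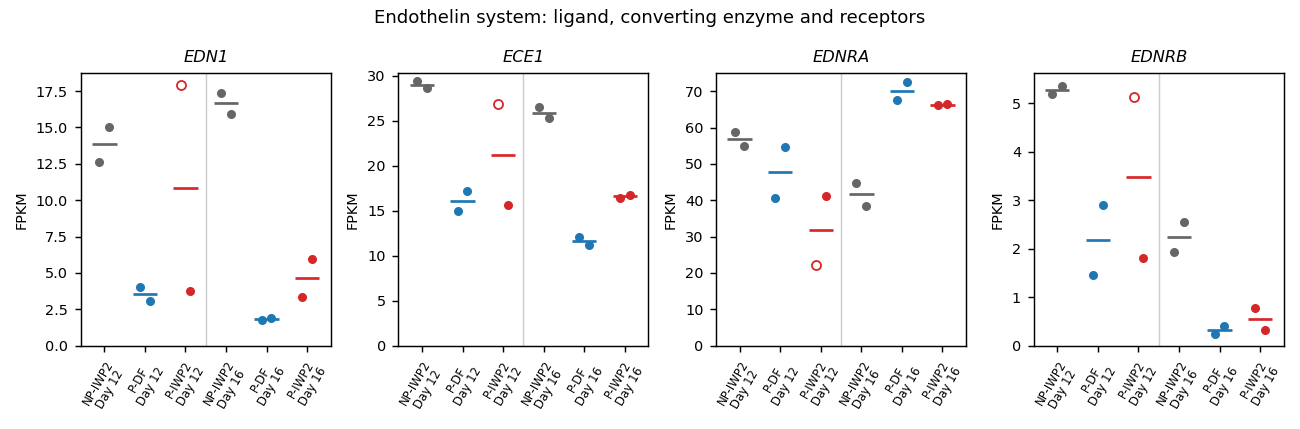
Levels in FPKM (vertical axis, from 0) of the ligand gene EDN1, the converting enzyme gene ECE1 and the receptor genes EDNRA and EDNRB by treatment and day. Points are libraries, lines are means of 2, and the open point is the Day 12 library labelled P-IWP2 replicate 5. On Day 16 EDNRA lay higher and the other 3 genes lower in passaged than in static libraries.

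AGTR1 (ENSG00000144891, chr3:148697784-148743008, plus strand), the gene for the type 1 angiotensin II receptor, was low everywhere and close to 0 in passaged cells. On Day 12 it had 19 and 12 counts in NP-IWP2 (0.31 and 0.21 FPKM), 1 and 0 in P-DF, and 6 and 1 in P-IWP2, the 6 being in replicate 5. Its Day 16 levels were 13 and 14 counts in NP-IWP2 (0.2 and 0.25 FPKM) and 1 count in each of the 4 passaged libraries. The passaged libraries were at or under 3 counts, the limit that a count of 0 allows, except replicate 5. The pooled level of P-DF was 0.0763 times that of NP-IWP2 on Day 16 (exact 95% interval 0.0088 to 0.304) and that of P-IWP2 0.0699 times (0.00805 to 0.278). These intervals cover counting error only. The 6 fibroblast or stromal markers (DCN, LUM, COL1A1, COL3A1, PDGFRA and POSTN) summed to 1180 to 1220 FPKM in static cells on Day 16 and to 19.6 to 29.9 in passaged cells, and on Day 12 to 681 to 700 in static cells, 673 in replicate 5 and 21.6 to 31.6 in the other passaged libraries. AGTR1 had the same order within each day, but its static level was not higher on Day 16 than on Day 12, and the part of these markers in its difference was not tested. On Day 16, 6 of the 6 stromal markers were above 0 in P-DF and 5 in P-IWP2, where DCN was at 0.

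The beta1-adrenergic receptor gene ADRB1 (ENSG00000043591, chr10:114043866-114046904, plus strand), the main beta-adrenergic receptor of adult cardiomyocytes, was under 1 FPKM in all 12 libraries. Its Day 12 levels were 0.06 and 0.1 FPKM in NP-IWP2, 0.11 and 0.08 in P-DF, 0.99 in P-IWP2 replicate 5 and 0.06 in replicate 6. The Day 16 libraries held 0.24 and 0.49 FPKM in NP-IWP2 (14 and 24 counts), 0.1 and 0.05 in P-DF (5 and 3 counts), and 0.04 and 0.03 in P-IWP2 (2 counts each). The passaged libraries lay below the static ones on Day 16, and both P-IWP2 libraries were under the limit of 3 counts. The pooled level was 0.217 times that of NP-IWP2 in P-DF (exact 95% interval 0.0874 to 0.472) and 0.0993 times in P-IWP2 (0.0257 to 0.276). On Day 12 the log2FC of P-IWP2 was 2.62 ± 1.0 with replicate 5 and -0.27 ± 1.01 without it. The sum of the 6 epicardial markers (WT1, TBX18, TCF21, UPK3B, ALDH1A2 and BNC1) was highest in that library too, at 140.0 FPKM, of which TBX18 was 106.06, against 69.5 to 99.2 in static cells on Day 16 and 40.2 to 61.1 on Day 12. No other passaged library was above 0.84. BNC1, UPK3B and ALDH1A2 were not highest there: BNC1, for example, had 5.91 FPKM in replicate 5 and at least 11.65 in each static library. Their part in the ADRB1 levels was not tested.

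Of the alpha1-adrenergic receptors, ADRA1B (ENSG00000170214, chr5:159865080-159973012, plus strand) was measured above 0 in every library. The Day 12 libraries held 0.27 and 0.49 FPKM in NP-IWP2, 0.66 and 0.54 in P-DF, and 0.26 and 0.54 in P-IWP2. Levels on Day 16 were 1.55 and 1.28 FPKM in NP-IWP2, 0.51 and 0.39 in P-DF, and 0.7 and 0.76 in P-IWP2. P-DF libraries lay above the static ones on Day 12 and below them on Day 16, and static cells of Day 16 were the highest of the 6 groups. The log2FC against NP-IWP2 on Day 16 was -1.43 ± 0.43 for P-DF and -0.68 ± 0.413 for P-IWP2, and that of static cells from Day 12 to Day 16 was 2.03 ± 0.439. ETF1 (r = 0.944), SDF2L1 (r = 0.904) and FAM98A (r = 0.894) were most like it. ADRA1A (ENSG00000120907, chromosome 8) had 0 to 3 counts per library, at or under the limit of 3 counts in all 12, so that no fold is given and it was left out of the fit.

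On Day 16, 4 of the 8 fitted receptor genes were among the genes called at an adjusted p under 0.05 for P-DF against NP-IWP2, where 15.3% of all tested genes were called, and 4 for P-IWP2, where 17.1% were. They were GPR22, CHRM2, AGTR1 and EDNRB in both with edgeR. DESeq2 did not call AGTR1 in either comparison, and it called EDNRA in both and ADRA1B for P-DF. Without replicate 5 of Day 12, the counts were 7 and 7 at 32.4% and 34.8% of all genes. Since the genes were picked for their levels in these libraries, nothing is read from these counts. P-DF and P-IWP2 share the NP-IWP2 libraries as controls, so that their fold changes are not independent.

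**Figure D3:**
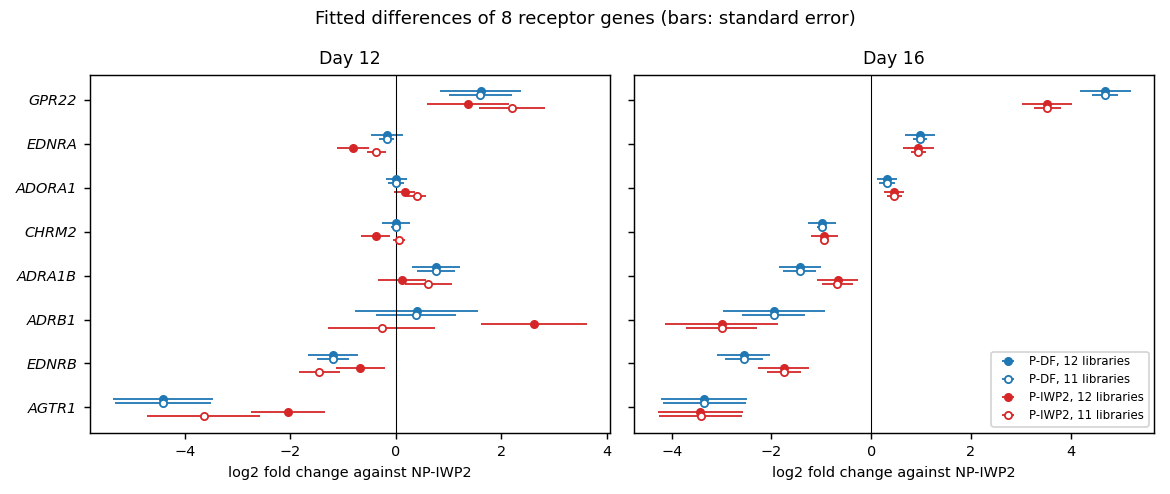
Fitted log2 fold changes against NP-IWP2 (horizontal axis) of the 8 receptor genes that passed the filter, on Day 12 and Day 16, with standard errors as bars. Filled points use all 12 libraries and open points leave out the Day 12 library labelled P-IWP2 replicate 5. On Day 16 GPR22 lay at 4.69 and 3.53, and EDNRA at 0.98 and 0.95, while CHRM2, ADRA1B, ADRB1, EDNRB and AGTR1 lay below 0 in both treatments.

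Genes around the receptors were taken from 14 lists of 138 genes, of which 123 passed the filter. These lists hold other receptors of the same transmitters, ligands and enzymes, G proteins and the parts of the cAMP and Gq pathways. On Day 16, 31 of the 123 genes were called for P-DF against NP-IWP2 (9 higher, 22 lower) beside 15.3% of all genes, and 35 for P-IWP2 (9 higher, 26 lower) beside 17.1%. Of all genes called, 1051 were higher and 1924 lower for P-DF, and 1395 higher and 1941 lower for P-IWP2. The Day 16 counts of single lists below stand beside these same shares, and no list was tested as a set. The median log2FC of the listed genes was -0.19 for P-DF and -0.26 for P-IWP2, against -0.02 and -0.03 over all tested genes. With library totals in place of TMM the median over all genes moved to -0.25 and -0.31, and the split for P-DF became 6 higher and 31 lower. Leaving out either P-IWP2 library of Day 12 raised both counts, and the share of all genes called rose as well. Leaving out a library of the groups compared lowered both counts, and the share of all genes called fell as well. These moves are thus not particular to the listed genes.

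Among the other receptors, the fixed lists held few calls. The 5 tested adrenergic receptor genes held 0 calls by edgeR on Day 16 in either passaged treatment, with 1 at an unadjusted p under 0.05 in each and none called by DESeq2. ADRA2B had 2.83 and 3.52 FPKM in NP-IWP2 on Day 12 and 0.79 and 1.04 on Day 16, without a call for that difference in time (adjusted p = 0.302). Neither of the 2 tested muscarinic receptor genes was called on Day 16 by edgeR or DESeq2, and neither had an unadjusted p under 0.05. ADORA2B, the A2B adenosine receptor gene, fell in P-IWP2 on Day 16 to 0.35 and 0.67 FPKM, from 2.4 and 2.37 in NP-IWP2 (log2FC -1.92 ± 0.355, adjusted p = 0.00808), and in P-DF it had 0.88 and 1.04 FPKM with adjusted p = 0.0619.

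AGT, the precursor gene of the angiotensin system, had 1.16 and 1.14 FPKM in NP-IWP2 on Day 16, 1.37 and 1.92 in P-DF and 1.84 and 1.28 in P-IWP2, without a call (adjusted p = 0.296 and 0.307). ATP6AP2, the prorenin receptor gene, was between 7.44 and 16.83 FPKM and AGTRAP, which binds the AGTR1 protein, between 3.06 and 6.23 FPKM over the 12 libraries, and neither was called against static cells.

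All 3 tested genes of the endothelin ligands and their converting enzymes were called lower in P-DF on Day 16 and 1 in P-IWP2. In P-IWP2, EDN1 and ECE1 also lay below both static libraries, without a call. The ligand gene EDN1 had 17.38 and 15.96 FPKM in NP-IWP2, 1.74 and 1.88 in P-DF (log2FC -2.97 ± 0.581, adjusted p = 0.0106), and 3.32 and 5.95 in P-IWP2 (log2FC -1.56 ± 0.539, adjusted p = 0.0766). ECE1, which cleaves the endothelin precursor, had 26.53 and 25.28 FPKM in NP-IWP2, 12.03 and 11.17 in P-DF (adjusted p = 0.00882), and 16.41 and 16.77 in P-IWP2 (adjusted p = 0.17). EDN3 had 30 and 27 counts in NP-IWP2, 0 and 1 in P-DF and none in P-IWP2, where it was at least 10.1-fold lower against a limit of 3 counts in each library. On Day 12, EDN1 had 17.92 FPKM in P-IWP2 replicate 5 and 3.74 in replicate 6, beside 12.66 and 15.01 in static cells. Endothelial cells are a known source of EDN1. Of their markers, CDH5 had 2.6 FPKM in replicate 5 and 0.03 in replicate 6, in the direction of EDN1, and KDR had 11.16 and 232.51, in the other direction. The part of these markers was not tested.

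Among enzymes that make or remove the transmitters, 2 of 14 tested genes were called in each passaged treatment on Day 16, both lower. DDC, which makes dopamine, had 64 and 58 counts in NP-IWP2, 1 and 0 in P-DF and none in P-IWP2, at least 21.5-fold lower. MAOA, which breaks down monoamines, had 0.12 and 0.16 FPKM in NP-IWP2, 0.01 in both P-DF libraries (log2FC -3.34 ± 0.441, adjusted p = 0.00193) and 0.03 in both P-IWP2 libraries (-1.87 ± 0.374, adjusted p = 0.0109). TH, the first enzyme of catecholamine synthesis, averaged at most 0.02 FPKM in every group. DDC is also a liver enzyme, and the 6 hepatic or endoderm markers (AFP, AHSG, ALB, APOA2, FOXA2 and TTR) summed to 589 to 721 FPKM in static cells on Day 16 and to 0.09 to 0.29 in passaged cells, where 5 (P-DF) and 4 (P-IWP2) of them were above 0. Their part was not tested.

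Of 11 G protein alpha subunit genes, 3 were called in P-DF, all lower, and 6 in P-IWP2, 5 of them lower. GNAI1, which encodes a Gi subunit through which CHRM2 and ADORA1 can act, had 3.82 and 3.91 FPKM in NP-IWP2 on Day 16, 1.47 and 1.46 in P-DF (log2FC -1.17 ± 0.146, adjusted p = 0.00153) and 1.63 and 1.73 in P-IWP2 (-0.92 ± 0.145, adjusted p = 0.00406). GNAO1, the Go subunit gene, was lower in both (log2FC -1.73 ± 0.484, adjusted p = 0.0419, and -2.15 ± 0.494, adjusted p = 0.0192). GNA14, of the Gq family, was lower in P-IWP2 (-2.89 ± 0.728, adjusted p = 0.0269), and in P-DF its log2FC was -1.47 ± 0.633 (adjusted p = 0.146).

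Of 9 adenylyl cyclase genes, 3 were called in P-DF (1 higher, 2 lower) and 2 in P-IWP2, both lower. ADCY5, the main cardiac isoform with ADCY6, had 0.6 and 0.66 FPKM in static cells on Day 12 and 3.98 and 1.57 in P-DF (log2FC 2.23 ± 0.396, adjusted p = 0.0203) and 3.18 and 4.04 in P-IWP2 (2.51 ± 0.398, adjusted p = 0.0174, and 2.77 ± 0.377, adjusted p = 0.000256, without replicate 5). By Day 16 it had 3.19 and 4.16 FPKM in static cells, 8.27 and 7.14 in P-DF (1.30 ± 0.366, adjusted p = 0.0419) and 3.89 and 2.89 in P-IWP2 (0.16 ± 0.363, adjusted p = 0.795). ADCY3 was lower in both treatments on Day 16 (log2FC -2.86 ± 0.567, adjusted p = 0.0112, and -2.13 ± 0.539, adjusted p = 0.0272), as was ADCY1, with 0.93 and 1.16 FPKM in NP-IWP2, 0.44 and 0.45 in P-DF (adjusted p = 0.0115) and 0.51 and 0.49 in P-IWP2 (adjusted p = 0.0271).

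Of 15 tested phosphodiesterase genes, 2 were called in each treatment, all lower, beside 15.3% (P-DF) and 17.1% (P-IWP2) of all genes. PDE3A, which degrades cAMP, had 5.29 and 5.86 FPKM in NP-IWP2 on Day 16, 0.2 and 0.26 in P-DF (log2FC -4.35 ± 0.843, adjusted p = 0.0103), and 0.05 and 0.08 in P-IWP2 (-6.10 ± 0.959, adjusted p = 0.00413). Levels on Day 12 were 7.38 FPKM in P-IWP2 replicate 5 and 0.65 in replicate 6, libraries where the stromal sums were 673 and 31.6 FPKM, and the part of those markers was not tested. PDE4A was called lower in P-DF (-2.34 ± 0.468, adjusted p = 0.0118) and PDE4B in P-IWP2 (-2.70 ± 0.596, adjusted p = 0.0164). Both also lay below the static libraries in the other passaged treatment. PDE4A had 0.08 and 0.09 FPKM in P-IWP2 against 0.24 and 0.28 in NP-IWP2, and PDE4B 0.19 and 0.31 in P-DF against 0.91 and 0.94. Among 12 genes of protein kinase A and its anchors, 3 were called in P-DF (1 higher) and 4 in P-IWP2 (2 higher). The catalytic subunit gene PRKACA rose from 13.55 and 12.95 FPKM in NP-IWP2 to 22.51 and 21.68 in P-DF (log2FC 0.97 ± 0.21, adjusted p = 0.0165) and 24.21 and 27.73 in P-IWP2 (1.25 ± 0.211, adjusted p = 0.00557). The anchor gene AKAP12 was lower in both (-1.80 ± 0.414, adjusted p = 0.0207, and -1.50 ± 0.41, adjusted p = 0.0359), and AKAP5, whose protein holds the kinase at the membrane, was called lower in P-DF (-1.13 ± 0.272, adjusted p = 0.0242). In P-IWP2, AKAP5 had 1.19 and 1.51 FPKM against 1.7 and 1.88 in NP-IWP2.

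No gene of the 7 receptor kinases and arrestins was called on Day 16 by edgeR or DESeq2, with 3 at an unadjusted p under 0.05 in each treatment. Of 15 tested RGS genes, whose proteins shorten G protein signaling, 3 were called in P-DF and 5 in P-IWP2, all lower. RGS4 had 11.91 and 12.81 FPKM in NP-IWP2 on Day 16, 0.35 and 0.34 in P-DF (log2FC -4.92 ± 1.02, adjusted p = 0.0134), and 0.19 and 0.29 in P-IWP2 (-5.41 ± 1.05, adjusted p = 0.00976), and on Day 12 it was at 16.3 FPKM in replicate 5 and 0.92 in replicate 6 of P-IWP2. RGS9 was called lower in P-DF (-3.42 ± 0.958, adjusted p = 0.0415), and RGS1 in P-IWP2, with 39 counts in static and 2 in P-IWP2 libraries, a ratio of 20.7 (exact 95% interval 5.35 to 177). RGS1 had 2 counts in P-DF as well, a ratio of 18.9 (4.9 to 162). RGS9 had 0.06 and 0.1 FPKM in P-IWP2 against 0.19 and 0.34 in NP-IWP2. Of 11 Gq effector genes, 6 were called in P-DF and 7 in P-IWP2, 1 of them higher in each, PRKCA. PRKCD was called lower in P-DF (-4.05 ± 1.13, adjusted p = 0.0411), PRKCB in P-IWP2 (-4.77 ± 1.3, adjusted p = 0.0398) and ITPR3, an IP3 receptor gene, in both (-1.46 ± 0.391, adjusted p = 0.0361, and -1.77 ± 0.397, adjusted p = 0.0175). PRKCD had 0.05 and 0.14 FPKM in P-IWP2 against 1.17 and 1.42 in NP-IWP2, and PRKCB 0.03 and 0.04 in P-DF against 0.32 and 0.51. Several of these genes are also expressed by stromal and endothelial cells, whose marker sums were lower in the passaged cells of Day 16, and the part of those sums was not tested.

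In the list of effector channels and kinase substrates, 6 of 12 genes were called in P-DF and 4 in P-IWP2, all higher. Without replicate 5 of Day 12 more genes of this list were called, and more of all genes as well. Those of the list were higher except KCNJ3. It encodes a subunit of the potassium channel that M2 and A1 receptors open. KCNJ3 had 1.25 and 1.6 FPKM in NP-IWP2 on Day 16, 0.16 and 0.17 in P-DF and 0.06 and 0.02 in P-IWP2. KCNJ5, which encodes the other subunit, averaged 10.6 FPKM in NP-IWP2 on that day, 11.4 in P-DF and 7.75 in P-IWP2. Its P-DF libraries overlapped the static ones, and its P-IWP2 libraries lay below them. With all 12 libraries the log2FC of KCNJ3 was -2.84 ± 1.29 (adjusted p = 0.165) for P-DF and -4.89 ± 1.56 (adjusted p = 0.0597) for P-IWP2, and without replicate 5, where it was at 8.25 FPKM, the adjusted p was 9.17e-05 and 6.75e-06. PLN, the phospholamban gene and a substrate of protein kinase A, had 176.95 and 134.92 FPKM in NP-IWP2 on Day 16, 904.71 and 1038.39 in P-DF (log2FC 2.86 ± 0.748, adjusted p = 0.0327), and 821.59 and 605.4 in P-IWP2 (2.45 ± 0.735, adjusted p = 0.0489). TNNI3, the adult cardiac troponin I gene, had 9.15 and 4.31 FPKM in NP-IWP2, 32.4 and 31.22 in P-DF (2.45 ± 0.375, adjusted p = 0.00392), and 35.87 and 35.12 in P-IWP2 (2.65 ± 0.377, adjusted p = 0.00275). KCNE1, a subunit of a potassium channel that the kinase regulates, was 1.77 ± 0.47 (adjusted p = 0.0349) and 2.40 ± 0.469 (adjusted p = 0.01) higher on the log2 scale. These genes are expressed in cardiomyocytes, whose summed markers were also higher in passaged cells on Day 16, though MYH6 was lower and TNNT2 overlapped, as given beside CHRM2. The part of those markers was not tested.

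**Figure D4:**
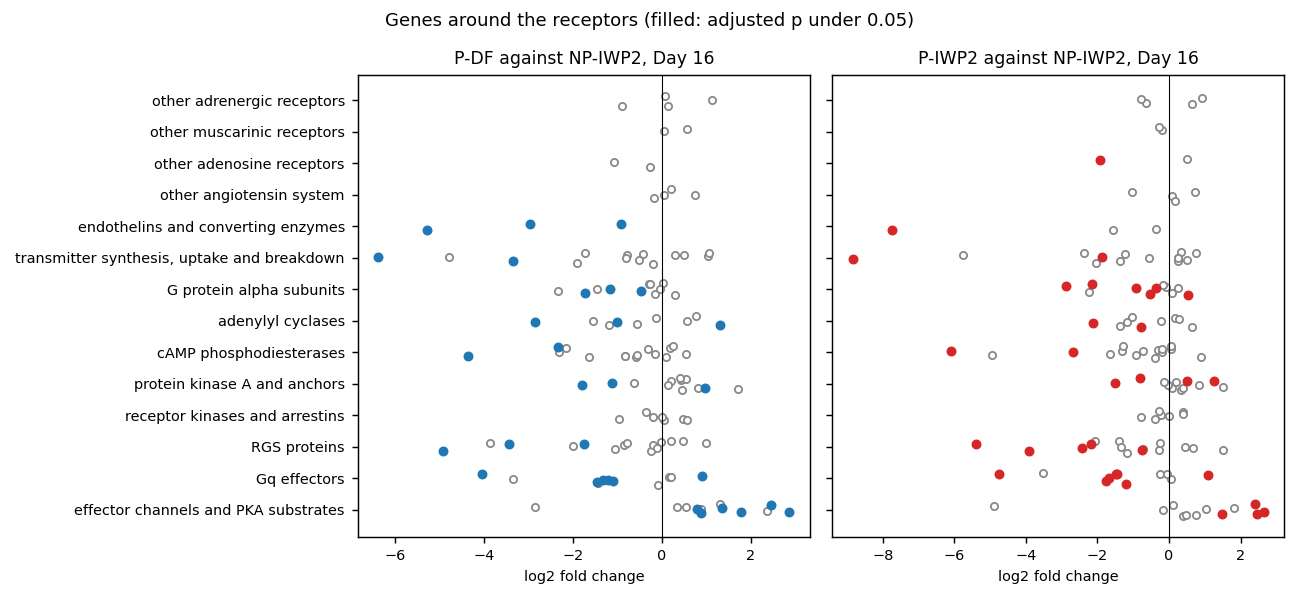
Log2 fold changes against NP-IWP2 on Day 16 (horizontal axis) of the genes of the 14 lists that are reported here (vertical axis), for P-DF on the left and P-IWP2 on the right. Each point is a gene, filled where the adjusted p was under 0.05. Called genes of the RGS list lay below 0, and those of the list of effector channels and kinase substrates above 0, in both treatments.

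On Day 12, 11 of the 123 listed genes were called for P-DF (2 higher, 9 lower), where 4.01% of all genes were called, and 6 for P-IWP2 (3 higher, 3 lower), where 1.66% were. Without replicate 5 these counts were 60 and 40, at 21.9% and 15.0% of all genes, and without replicate 6 they were 59 and 37. Leaving out 1 NP-IWP2 or P-DF library of Day 12 gave 0 or 1 for P-DF, and leaving out 1 NP-IWP2 library of that day gave 0 or 1 for P-IWP2. Leaving out 1 library of Day 16 gave 3 to 6 for P-DF and 3 to 5 for P-IWP2. ADCY5 was higher and DDC lower in both passaged treatments on that day.

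Between P-IWP2 and P-DF on Day 16, 0 of the 123 genes passed the threshold with edgeR, beside 0.0% of all genes, with 15 at an unadjusted p under 0.05 and 1 called by DESeq2. Leaving out either P-IWP2 library of Day 12 gave 8, and without replicate 5 the share of all genes was 2.49%. The receptor genes had fitted differences between the 2 passaged treatments from -1.16 ± 0.422 (GPR22) to 0.80 ± 0.552 (EDNRB). The standard errors of ADRB1 and AGTR1, at 1.33 and 1.23, were as large as or larger than their differences of -1.05 and -0.07.

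From Day 12 to Day 16, 7 of the listed genes were called in the static treatment (3 higher, 4 lower; 1.98% of all genes), 21 in that of P-DF (13 higher, 8 lower; 13.6%) and 41 in that of P-IWP2 (15 higher, 26 lower; 27.0%). With library totals the split was 7 higher and 13 lower in P-DF and 8 higher and 47 lower in P-IWP2, as the median of all genes moved to -0.28 and -0.49. Without replicate 5 the counts were 31, 50 and 48, at 17.1%, 29.2% and 23.7% of all genes, and without replicate 6 they were 32, 51 and 76. Leaving out a library of the treatment itself gave 0 in NP-IWP2, 6 to 13 in P-DF, and 27 and 9 in P-IWP2 without its Day 16 replicates 5 and 6. TNNI3 rose with time in P-DF, from 4.59 and 3.11 to 32.4 and 31.22 FPKM (adjusted p = 0.00153), and in P-IWP2 (log2FC 3.34 ± 0.391, adjusted p = 0.00121, and 2.98 ± 0.359 without replicate 5 of Day 12), while in NP-IWP2 its log2FC was -0.10 ± 0.366 (adjusted p = 0.909). The change with time differed between passaged and static cells for 2 listed genes in P-DF (0.482% of all genes) and 5 in P-IWP2 (1.84%). Without replicate 5 these were 18 and 17, at 7.62% and 7.89%, and without replicate 6 they were 18 and 63. With library totals they were 1 (higher) and 9 (2 higher, 7 lower), against 1 higher and 1 lower, and 2 higher and 3 lower, with TMM. Without any other library they were 0 or 1 for P-DF and 0 to 3 for P-IWP2.

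**Figure D5:**
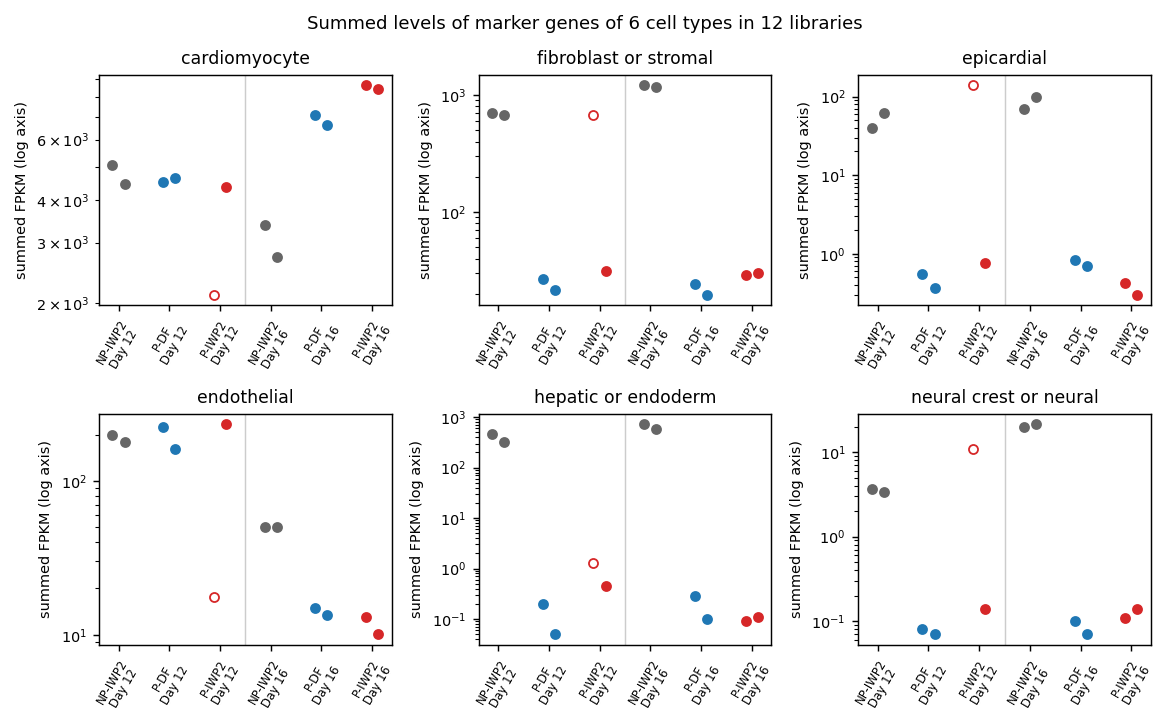
Summed FPKM of the marker genes of 6 cell types (vertical axis, logarithmic) by treatment and day. Points are libraries, and the open point is the Day 12 library labelled P-IWP2 replicate 5. Stromal, epicardial, hepatic and neural sums were higher in static libraries than in the passaged ones on Day 16, cardiomyocyte sums were lower, and replicate 5 lay near the static libraries for the stromal markers.

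The summed smooth muscle or pericyte markers overlapped between the treatments on Day 16, with 242 to 463 FPKM in NP-IWP2, 233 to 341 in P-DF and 298 to 899 in P-IWP2. Single markers of that list did not overlap. PDGFRB had 21.14 and 22.07 FPKM in static and 0.34 to 0.63 in passaged libraries, NOTCH3 had 9.48 and 13.11 against 2.61 to 3.39, and CNN1 was higher in passaged cells, with 172.19 to 439.5 FPKM against 31.84 and 111.07. The 4 pacemaker markers HCN4, SHOX2, TBX3 and ISL1 summed to 60.4 to 69.5 FPKM in NP-IWP2, 30.8 to 34.3 in P-DF and 27.5 to 28.8 in P-IWP2 on that day, in the same direction as CHRM2. On Day 12, replicate 5 had the highest pacemaker sum of all libraries (198) and the lowest CHRM2 level (11.35 FPKM), so the direction did not hold there.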

How the data were processed

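RNA-seq was performed on 12 libraries of differentiated H1 cells. Per the labels and methods, the authors trimmed reads with Cutadapt 1.9.1, aligned them with HISAT2 2.0.1 to hg38 and counted them per gene with HTSeq 0.6.1; the strand setting and the annotation version are not given in the sources used here. The deposited table holds read counts without normalization and FPKM, which the authors made from the counts, exon length and the library total. Of 61806 genes, 20417 have no symbol. The counts were fitted here with edgeR 4.0.16 (R 4.3.3): TMM, filterByExpr (19505 genes), 1 model of 6 groups, quasi-likelihood test, Benjamini-Hochberg adjustment over all tested genes, threshold 0.05. Standard errors were derived as the absolute log2FC divided by the square root of the F statistic of that test, so they are approximate. Ratios of few counts carry exact Clopper-Pearson 95% intervals.

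The receptor genes and the lists were chosen with earlier results of these data known. From each list, up to 3 called genes with the largest change on Day 16 and no overlap between libraries were named, with receptors, ligands and enzymes of the first 5 lists at a group mean of at least 1 FPKM. COG5, TH, PRKCA, KCNJ3, KCNJ5, PDE4D and RGS16, and the Day 12 values of other genes, were named after their values were seen. Some genes of the lists enter the counts, but their own results are not reported here. Likeness is Pearson's r among 12517 genes. The fit was tested on simulated data. Alternatives were DESeq2 1.42.0, library totals, no filter, a replicate block and each library left out. Python 3.11.15 made tables and figures.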

Additional observations from a re-analysis of the deposited data

Results flagged for a closer look

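For 5 of the listed genes, passaged and static cells differed by unequal amounts on the 2 days, by the interaction of day and treatment (edgeR, adjusted p under 0.05). These calls depended on the model and on single libraries. With a replicate block, 0 listed genes were called for P-DF and 3 for P-IWP2. Fewer were also called for each treatment when any library outside the Day 12 P-IWP2 pair was left out. MAOA differed for P-DF by -3.19 on the log2 scale (adjusted p = 0.0486): its levels were 0.2 and 0.14 FPKM on Day 12, beside 0.18 and 0.22 in static cells, and 0.01 in both libraries on Day 16, beside 0.12 and 0.16. TNNI3 differed by 3.40 for P-DF (adjusted p = 0.0357) and by 3.44 for P-IWP2 (adjusted p = 0.0191): its level was under 10 FPKM in all Day 12 libraries and in static cells and 31.22 to 35.87 FPKM in the passaged libraries of Day 16. For P-IWP2, PDE3A differed by -5.69 (adjusted p = 0.0478), PDE4D by -1.86 (adjusted p = 0.0267) and RGS16 by -1.68 (adjusted p = 0.036). Without replicate 5 of the Day 12 P-IWP2 pair, the P-IWP2 values were -3.27 for PDE3A (adjusted p = 6.21e-05), -1.40 for PDE4D (adjusted p = 0.000737), -1.76 for RGS16 (adjusted p = 0.00604) and 3.08 for TNNI3 (adjusted p = 0.000916).

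For 2 of the receptor genes, both passaged libraries lay on one side of the static ones on Day 12 and on the other side on Day 16, and these differences were not tested. The log2 fold change of ADRA1B in P-DF against NP-IWP2 was lower on Day 16 than on Day 12 by -2.19. That of EDNRA was higher on Day 16, by 1.15 for P-DF. For P-IWP2 it was higher by 1.77, or by 1.32 without replicate 5.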

How the results depend on the processing

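The fold changes of the receptor genes moved by less than their standard error in 272 of 280 values with another tool, scaling or filter. This held in 333 of 360 with another library left out and in 59 of 80 without the Day 12 library P-IWP2 replicate 5. The counts of called listed genes depended more on the processing. With DESeq2 they were 31 for P-DF on Day 12, 1 between the passaged treatments, and 7 and 14 for the interactions with P-DF and P-IWP2. With library totals the interactions gave 1 and 9. Without the filter the counts were 51 and 60 for P-DF on Day 12 and Day 16, 18 and 61 for P-IWP2, 9 between the passaged treatments, 21, 36 and 65 for time in NP-IWP2, P-DF and P-IWP2, and 16 and 36 for the interactions. With each library left out in turn they ran from 0 to 60 and from 5 to 70 for P-DF on Day 12 and Day 16, from 0 to 40 and from 10 to 70 for P-IWP2, from 0 to 8 between the passaged treatments, from 0 to 32, from 6 to 51 and from 9 to 76 for time, and from 0 to 18 and from 0 to 63 for the interactions. The number of all genes called moved as well in most comparisons. Why the counts moved was not tested. The replicate numbers did not pair the libraries: deviations of equal numbers on the 2 days correlated at 0.13, -0.036 and -0.053 across genes. With a replicate block, the counts were 3, 18 and 41 for time and 0 and 3 for the interactions. Of the genes most like a receptor gene, 13 of 36 left the first 3 with another pseudocount or filter and 12 of 18 without replicate 5. With 3 counts as the limit, ADRA1A, ADRB1 in P-IWP2 on Day 16, and AGTR1 in passaged cells other than the Day 12 library P-IWP2 replicate 5 were at or under it in each library. Their levels there are imprecise. Single libraries of other groups were at or under 3 counts too. For GPR22 these were NP-IWP2 replicate 2 and P-IWP2 replicate 5 of Day 12. For ADRB1 they were NP-IWP2 replicate 1 and P-IWP2 replicate 6 of Day 12, and P-DF replicate 4 of Day 16.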
